A study of Mus musculus with 12 samples.

Results

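Pitx1, Tbx4, Tbx5, Tbx15, Shox2, Meis1 and Meis2 are transcription factors that assign identity to the developing limb, and they were taken by gene symbol from a table of 17536 genes. All 7 were present. They were described in articular chondrocytes of the superficial zone (SFZ) and of the deep zone (DZ) from 5-day-old C57BL/6 mice. The study's methods write this strain as C57BL/6J. There were 3 libraries for each zone and genotype and 12 in all. Both genotypes carried Runx3 fl/fl alleles, which are floxed copies of Runx3, a runt-family transcription factor of cartilage. R3-Cntl mice carried these alleles alone, and R3-cKO mice also carried Col2a1-Cre, in which the Col2a1 promoter drives Cre recombinase in chondrocytes. The study's methods place the dissection at the upper end of the femur and the lower end of the tibia, both of them hindlimb bones, and describe monolayer culture of the cells. The methods released SFZ cells from the surface by enzyme digestion and DZ cells by further digestion of the cartilage that remained. The comparisons ask which limb the factors point to in each library, and how they differed between the zones and between the genotypes.

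Fore- and hindlimb buds are built from very similar mesenchyme, and a small set of transcription factors tells them apart. Pitx1 and its target Tbx4 mark the hindlimb, and Tbx5 is the forelimb counterpart of Tbx4 and is also a factor of the heart. HoxC genes follow the same division, with Hoxc9, Hoxc10 and Hoxc11 used in the hindlimb and Hoxc4 and Hoxc5 near the forelimb level. Along the limb, Meis1 and Meis2 mark the proximal part, Shox2 serves the upper limb segment, and Tbx15 serves the girdles and the limb skeleton.

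Tbx4 and Tbx5 are close relatives, and the comparison of their levels depends on reads that tell them apart. The sequences below are the most alike stretch of their coding sequences, 100 bases long as a read is, and the capitals mark the 13 bases that differ. In NCBIM37 (mm9, the build the authors used) the Tbx4 stretch lies in exons between chr11:85724690-85725465 on the forward strand. The Tbx5 stretch lies in exons between chr5:120295055-120303565, also on the forward strand.
Tbx4: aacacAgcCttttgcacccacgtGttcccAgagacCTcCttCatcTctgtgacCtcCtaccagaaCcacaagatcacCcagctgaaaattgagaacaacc
Tbx5: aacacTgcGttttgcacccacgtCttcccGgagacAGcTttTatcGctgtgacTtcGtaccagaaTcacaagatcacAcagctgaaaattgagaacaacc
Meis1 and Meis2 are likewise relatives, and their most alike stretch of 100 coding bases differed at 14 bases, again in capitals. The Meis1 stretch lies in exons between chr11:18805731-18841723 and the Meis2 stretch in exons between chr2:115747447-115825928, both on the reverse strand.
Meis1: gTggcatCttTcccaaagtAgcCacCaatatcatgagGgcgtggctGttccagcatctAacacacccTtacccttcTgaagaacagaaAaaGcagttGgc
Meis2: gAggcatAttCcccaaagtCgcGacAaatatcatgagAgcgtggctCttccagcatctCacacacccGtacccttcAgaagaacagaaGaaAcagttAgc
Of the stretches of 100 bases in the annotated transcripts, 0 of 3299 of Tbx4, 0 of 3842 of Tbx5, 0 of 3454 of Meis1 and 0 of 6827 of Meis2 occurred in transcripts of another protein-coding gene. Pitx1 and Tbx15 also shared 0 stretches. Shox2 shared 54 of 3364 stretches (1.61%) with Rsrc1, a gene on the opposite strand that overlaps its start, so those reads of Shox2 cannot be told apart without strand.

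The genes lie on 5 chromosomes of NCBIM37. Pitx1 (Entrez gene 18740) spans 55926415 to 55937553 of chromosome 13 on the reverse strand. Tbx4 (21387) spans 85699924 to 85729599 of chromosome 11 and Tbx5 (21388) spans 120284672 to 120335227 of chromosome 5, both on the forward strand. Tbx15 (21384) spans 99044304 to 99158182 of chromosome 3 on the forward strand, and Shox2 (20429) spans 66775649 to 66785693 of the same chromosome on the reverse strand. Meis1 (17268) spans 18780433 to 18918961 of chromosome 11 and Meis2 (17536) spans 115688800 to 115891575 of chromosome 2, both on the reverse strand. Every value below is a level over a whole gene.

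The deposited levels are taken as FPKM, which is read fragments scaled for transcript length and library total, and on which genes can be compared. The unit was inferred from the values and is not written beside them. The values summed to 392241 to 429213 per library, and 10720 to 11595 genes reached 1 FPKM. The sequencing depth is unknown, since counts were not used here, so the spread between the 3 libraries of a group is the only measure of error. Runx3 itself did not separate the genotypes, with 5.98 to 10.73 FPKM (R3-Cntl) beside 3.42 to 11.83 FPKM (R3-cKO) among SFZ libraries, and 7.66 to 12.67 beside 8.14 to 15.95 FPKM among DZ libraries. A value over the whole gene also counts reads from outside the floxed part, so it does not check the deletion, and R3-cKO below means the libraries labelled so. Chondrocyte markers were high in every library, with Col2a1 at 3049 to 9229 FPKM in SFZ and 11248 to 22791 FPKM in DZ libraries. Markers of other cells were also present, more so in the SFZ, and are given below, so the libraries are not taken as pure chondrocytes. Values of SFZ and DZ libraries with the same number may come from the same mouse, which the labels do not say.

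Hindlimb and forelimb factors gave different answers on the limb of origin. Pitx1 exceeded Tbx5 in 12 of 12 libraries, and the summed FPKM of the 3 hindlimb HoxC genes exceeded that of the 2 forelimb HoxC genes in 12 of 12. Hoxc10 carried this sum and exceeded Hoxc4 in 12 of 12 libraries, whereas Hoxc9 did so in 5 and Hoxc11 in 1. The other forelimb gene, Hoxc5, was exceeded by Hoxc10 in 12, by Hoxc9 in 11 and by Hoxc11 in 6 of 12 libraries. Tbx5, however, exceeded Tbx4 in 11 of 12 libraries, although only hindlimb bones are named as the source. The exception was R3-cKO DZ library 3. In bulk samples fewer cells of a type and less RNA per cell cannot be told apart, and no library of a single limb type was measured here, so these levels do not convert to shares of cells.

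Pitx1, the homeobox factor that drives hindlimb identity, was among the higher-expressed genes, above 86.7% of all genes by its mean. It gave SFZ values of 32.63, 31.13 and 29.43 FPKM for R3-Cntl replicates 1, 2 and 3 and 37.07, 30.67 and 24.35 FPKM for R3-cKO replicates. Its DZ values were 20.15, 26.56 and 24.22 FPKM (R3-Cntl) and 33.13, 34.10 and 41.79 FPKM (R3-cKO). The SFZ genotypes overlapped, whereas every R3-cKO DZ library lay above every R3-Cntl DZ library.

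Tbx4, the hindlimb T-box factor that Pitx1 activates, was a low to moderate transcript. It gave SFZ values of 6.35, 7.95 and 5.25 FPKM (R3-Cntl) and 6.24, 4.79 and 5.07 FPKM (R3-cKO). Its DZ values were 1.77, 3.42 and 3.29 FPKM (R3-Cntl) and 2.09, 4.79 and 5.05 FPKM (R3-cKO). Library 1 was the lowest of its group in both DZ genotypes. All R3-Cntl DZ libraries lay below all R3-Cntl SFZ libraries, whereas the R3-cKO zones overlapped.

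Tbx5, the forelimb T-box factor, gave SFZ values of 13.65, 11.59 and 10.06 FPKM (R3-Cntl) and 14.54, 13.18 and 13.29 FPKM (R3-cKO). Its DZ values were 7.39, 8.45 and 6.74 FPKM (R3-Cntl) and 6.72, 10.36 and 3.85 FPKM (R3-cKO). DZ lay below SFZ without overlap within each genotype. The 3 R3-cKO DZ libraries spread more widely (mean 6.98 ± 3.26, SD, n = 3) than the R3-Cntl DZ libraries (mean 7.53 ± 0.863, SD, n = 3).

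Tbx15, a T-box factor of the shoulder and pelvic girdles and of limb cartilage, was the highest of the 7 in every group. It gave SFZ values of 63.57, 69.89 and 77.41 FPKM (R3-Cntl) and 69.11, 78.12 and 69.26 FPKM (R3-cKO). Its DZ values were 52.30, 83.11 and 93.75 FPKM (R3-Cntl) and 93.22, 104.51 and 101.00 FPKM (R3-cKO). R3-Cntl DZ library 1 was the lowest of all 12 libraries, and the R3-cKO DZ libraries lay above both SFZ groups.

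Shox2, a homeobox factor needed for the upper limb segment, gave SFZ values of 37.52, 26.37 and 22.34 FPKM (R3-Cntl) and 36.01, 25.21 and 26.04 FPKM (R3-cKO). Its DZ values were 45.37, 35.33 and 38.96 FPKM (R3-Cntl) and 39.08, 28.11 and 37.97 FPKM (R3-cKO). Library 1 was the highest in all 4 groups, and the groups overlapped in each comparison.

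Meis1 and Meis2 encode TALE homeobox proteins that partner Hox and Pbx proteins and mark the proximal limb. Meis1 gave SFZ values of 4.68, 4.21 and 3.32 FPKM (R3-Cntl) and 5.38, 3.43 and 5.66 FPKM (R3-cKO), against DZ values of 2.14, 2.09 and 2.30 FPKM (R3-Cntl) and 2.18, 1.55 and 1.60 FPKM (R3-cKO). Meis2 gave SFZ values of 4.88, 7.54 and 7.51 FPKM (R3-Cntl) and 5.61, 6.65 and 8.81 FPKM (R3-cKO), against DZ values of 2.13, 3.43 and 3.40 FPKM (R3-Cntl) and 2.33, 2.96 and 2.25 FPKM (R3-cKO). For both genes all 6 DZ libraries lay below all 6 SFZ libraries.

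**Figure D1:**
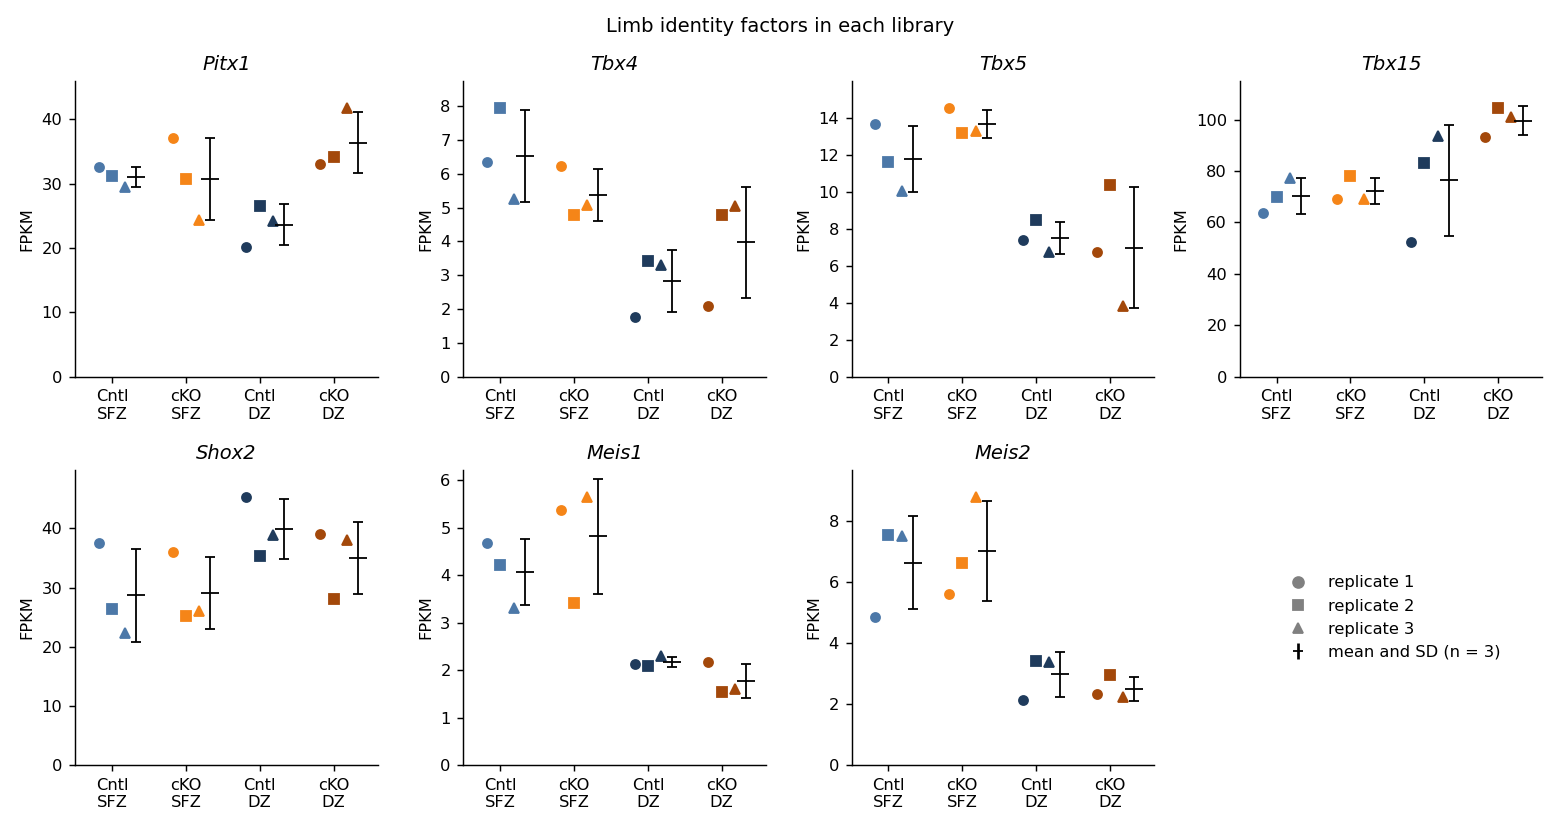
Level of each limb identity factor in FPKM (vertical axes, each from 0) in the 3 libraries of each group, with the replicate number as the symbol and the mean and SD beside the points. Meis1 and Meis2 show no overlap between the zones, Pitx1 is higher in R3-cKO than in R3-Cntl DZ libraries, and Tbx15 reaches 104.51 FPKM in R3-cKO DZ library 2.

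In order of mean level, Tbx15 (70.3 to 99.6 FPKM over the 4 groups) stood above the rest without overlap in each group. Pitx1 and Shox2 came next, and their ranges met in every group but R3-Cntl DZ, where Shox2 (39.9 ± 5.08 FPKM, SD, n = 3) exceeded Pitx1 (23.6 ± 3.24, SD, n = 3). Tbx5 came after them in each group, and its range met that of the next gene only in R3-cKO DZ. Meis2, Tbx4 and Meis1 were the lowest, and most neighbours among them did not differ beyond their spread. Over all 12 libraries the highest value was 4.49 times the lowest for Tbx4, 4.14 times for Meis2, 3.78 times for Tbx5 and 3.65 times for Meis1, but only 2.07 times for Pitx1, 2.03 times for Shox2 and 2.0 times for Tbx15.

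The balance of Tbx4 and Tbx5 was examined as a log2 ratio in each library, after 1 FPKM was added to both genes. Its SFZ values were -1.0, -0.49 and -0.82 (R3-Cntl) and -1.10, -1.29 and -1.24 (R3-cKO). The DZ values were -1.60, -1.10 and -0.85 (R3-Cntl) and -1.32, -0.97 and 0.32 (R3-cKO). Expressed as a share, Tbx5 made up 59.3 to 73.3% of the summed FPKM of both genes in SFZ libraries and 67.2 to 80.7% in R3-Cntl DZ libraries. In R3-cKO DZ libraries it made up 76.3, 68.4 and 43.3%.

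Between genotypes the ratio was lower in R3-cKO than in R3-Cntl SFZ by 0.44 with no overlap of the groups (exact two-sided permutation p = 0.1, the smallest that 3 against 3 libraries allow). This exact permutation p became 0.24 after adjustment over 12 comparisons of this ratio and the ratios below. In the DZ the ratio was 0.52 higher in R3-cKO (exact permutation p = 0.5), and without R3-cKO DZ library 3 the difference was 0.04. Taken in same-number pairs the DZ ratio was higher in R3-cKO in 3 of 3, by 0.28, 0.12 and 1.17, and the mean without the third pair was 0.20, a value added after seeing the data. Between zones it was 0.41 lower in R3-Cntl DZ and 0.55 higher in R3-cKO DZ than in SFZ of the same genotype, with exact permutation p of 0.2 and 0.4. Without R3-cKO DZ library 3 the difference of 0.55 became 0.06, and the mean of the same-number differences without number 3 was 0.05. Over all libraries the zone difference in this ratio was 0.07 (exact permutation p = 0.855).

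A pair of further ratios was added after the data had been seen. The log2 ratio of Pitx1 to Tbx5 ranged from 0.83 to 1.46 in SFZ libraries, and from 1.33 to 1.70 in R3-Cntl DZ libraries. It was 2.14, 1.63 and 3.14 in R3-cKO DZ libraries, all above the R3-cKO SFZ libraries. The log2 ratio of the summed Hoxc9, Hoxc10 and Hoxc11 to the summed Hoxc4 and Hoxc5 ranged from 1.59 to 2.21 in SFZ libraries. It was 2.31, 2.55 and 2.31 in R3-Cntl DZ and 3.08, 2.80 and 3.14 in R3-cKO DZ libraries.

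The HoxC ratio was thus lowest in the SFZ, higher in R3-Cntl DZ and highest in R3-cKO DZ libraries, with no overlap between these 3 sets. The differences were 0.62 between DZ genotypes, 0.55 between R3-Cntl zones and 1.18 between R3-cKO zones, each with an exact permutation p of 0.1. Each p became 0.24 after adjustment over the 12 comparisons of the 3 ratios within a zone or a genotype. Between SFZ genotypes the HoxC ratio differed by 0.02 and overlapped. When zone labels were exchanged within each genotype over all 12 libraries, the zone difference of 0.86 gave an unadjusted exact permutation p of 0.005. That is the smallest this design can give, but the ratio was chosen after seeing the data, so this p only describes these libraries. Hoxc5 reached 1 FPKM in 6 SFZ and 0 DZ libraries, and Hoxc11 in 3 DZ libraries and 1 SFZ library. Each thus passed the filter only through the zone where it was higher. The zone difference of 0.70 in the ratio of Pitx1 to Tbx5 gave an unadjusted exact permutation p of 0.015. It came to 0.19 in R3-Cntl, where the zones overlapped (exact permutation p = 0.3, adjusted 0.4), and to 1.21 in R3-cKO, where they did not (0.1, adjusted 0.24). Without R3-cKO DZ library 3, left out after seeing the data, the R3-cKO difference was 0.79 and the mean of both genotypes' differences 0.49.

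**Figure D2:**
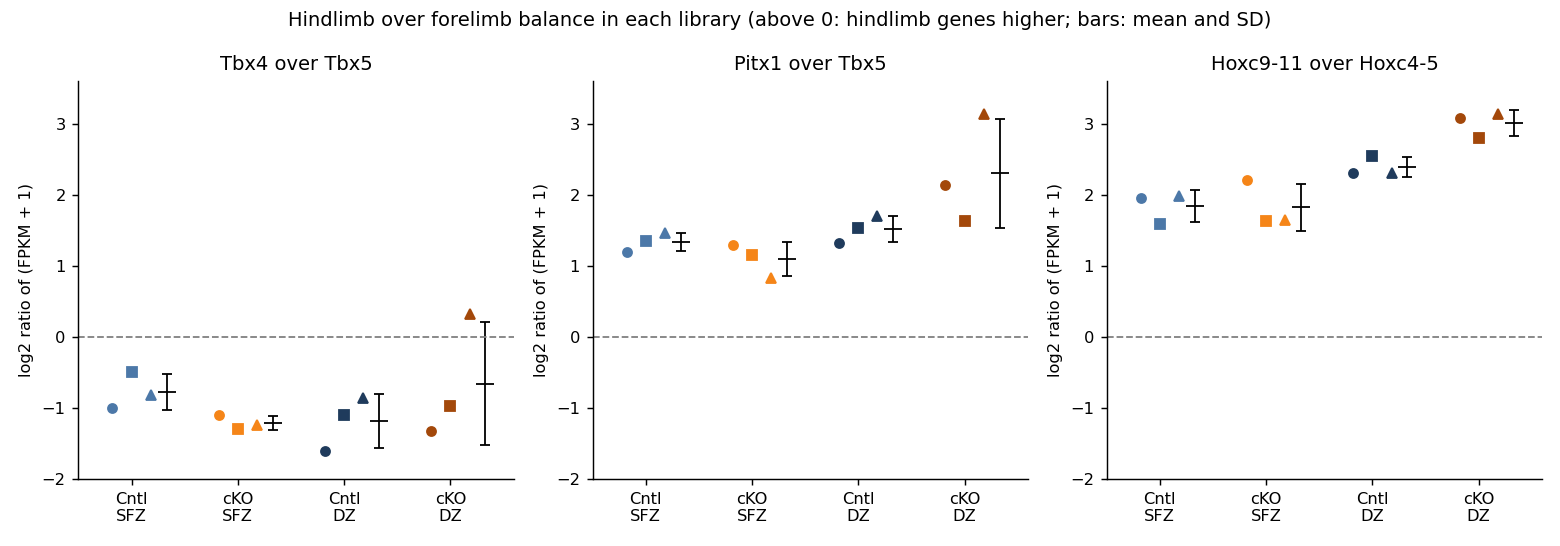
Log2 ratio of hindlimb to forelimb transcripts in each library, from FPKM + 1, for Tbx4 over Tbx5, Pitx1 over Tbx5 and the sum of Hoxc9 to Hoxc11 over the sum of Hoxc4 and Hoxc5, with mean and SD beside the 3 replicates of each group. Values above the dashed line at 0 have the hindlimb genes higher, and the Tbx4 ratio is above it only in R3-cKO DZ library 3, at 0.32.

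Single HoxC genes did not show all of this separation. Hoxc10, a hindlimb Hox gene, gave SFZ values of 16.49, 14.44 and 14.83 FPKM (R3-Cntl) and 22.17, 11.89 and 13.61 FPKM (R3-cKO), and DZ values of 10.98, 15.30 and 16.89 FPKM (R3-Cntl) and 22.15, 18.09 and 30.40 FPKM (R3-cKO). Hoxc5, of the forelimb level, gave SFZ values of 1.46, 1.63 and 1.45 FPKM (R3-Cntl) and 1.69, 1.65 and 1.96 FPKM (R3-cKO), and DZ values of 0.53, 0.61 and 0.91 FPKM (R3-Cntl) and 0.65, 0.84 and 0.71 FPKM (R3-cKO). Hoxc5 was lower in all 6 DZ than in all 6 SFZ libraries, as were 9.71% of the genes tested, but it passed the filter only through the SFZ. Hoxc10 overlapped between the zones of each genotype and was highest in R3-cKO DZ library 3. Of Hox genes of the other limb segments, Hoxa9 and Hoxd9 of the upper segment reached 7.07 to 23.01 FPKM and Hoxa11 of the middle segment 7.52 to 19.78 FPKM, whereas Hoxd11 of the same segment stayed between 0.10 and 0.85 FPKM. Hoxa13 and Hoxd13, which serve the hand and foot, did not exceed 0.57 FPKM in any of the 12 libraries.

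Zone gave the clearest differences, and 4 of the 7 factors were lower in the DZ. All 12 libraries were fitted in limma with zone and genotype as terms, on the scale of log2(FPKM + 1), on which all differences below are given. Of 11765 genes tested, 18.9% were called lower in the DZ at an adjusted p under 0.05. Called lower were Meis2 (difference -1.06, standard error 0.14, limma adjusted p = 0.00117), Meis1 (-0.86, 0.13, 0.002), Tbx5 (-0.77, 0.18, 0.0116) and Tbx4 (-0.70, 0.20, 0.0301). Shox2 was 0.37 higher (0.15, 0.0857), Tbx15 was 0.27 higher (0.14, 0.175) and Pitx1 differed by -0.07 (0.14, 0.756), none of them past the threshold. With the replicate number as a block Shox2, higher in the DZ in 6 of 6 same-number pairs, was called (limma adjusted p = 0.0145), although same-numbered R3-Cntl zones did not all deviate together.

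By the exact permutation test of zone labels within genotypes, Meis1, Meis2 and Tbx5 each gave the smallest possible p of 0.005, Tbx4 gave 0.015, Shox2 0.035, Tbx15 0.1 and Pitx1 0.66. Meis1 and Meis2 were the 2 factors whose DZ libraries all lay below all SFZ libraries, as did 9.71% of the genes tested. These tests take SFZ and DZ libraries as separate samples.

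The whole set of genes leaned towards lower DZ values, and this depended on scaling. The median of all genes was -0.14 in this fit, and it became 0.04 after quantile normalization and 0.00 with median-of-ratios size factors. With the values as deposited 506 genes were higher and 2219 lower, against 1238 and 864 after quantile normalization and 1050 and 1080 with size factors. Tbx5, Meis1 and Meis2 were called lower on all 3 scales. Tbx4 was called on the deposited scale only, with a difference of -0.47 (limma adjusted p = 0.102) after quantile normalization and -0.57 (0.0684) with size factors. It also lost the call in 5 of the 12 fits that left out a library, those without R3-Cntl SFZ 1, R3-Cntl SFZ 2, R3-cKO SFZ 1, R3-Cntl DZ 1 or R3-cKO DZ 1 (limma adjusted p of 0.0544 to 0.076). With size factors Shox2 (0.53, 0.0337) and Tbx15 (0.43, 0.0384) were called higher in the DZ, and Pitx1 differed by 0.09.

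Other cells and matrix markers moved with zone. Beside the counts that follow, 506 of all 11765 genes tested were called higher and 2219 (18.9%) lower in the DZ. The marker counts are of the values as deposited and were not made on the other scales. Of 13 chondrocyte markers 11 were called higher in the DZ, and they summed to 5590 to 17400 FPKM in SFZ and 17200 to 39700 FPKM in DZ libraries. Of 9 fibroblast and synovium markers 7 were tested and called lower in the DZ, 3 of them past the filter only through the SFZ, with sums of 172 to 582 FPKM in SFZ and 3.15 to 52.1 FPKM in DZ libraries. Of 10 macrophage markers 9 were tested and called lower, 7 of them past the filter only through the SFZ, with sums of 7.76 to 188 FPKM in SFZ and 3.76 to 25.3 FPKM in DZ libraries. Of 6 tendon and ligament markers 5 were called lower, 3 of them likewise. None of the genes of these 4 lists was at 0 in every library of a group. Of 7 osteoblast markers 5 were tested and 2 called lower in the DZ. Of 6 superficial zone markers 5 were tested and 2 called lower, 1 of them past the filter only through the SFZ. Skeletal muscle markers summed to 158 FPKM in R3-Cntl SFZ library 2 and to at most 21.5 FPKM in the others, and without that library Tbx4 measured -0.61. The part of these cells in the differences of the limb factors was not tested.

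Within R3-Cntl mice 0 of 7 factors reached an adjusted p under 0.05 in limma, as 1.24% of 11336 genes did. At an unadjusted p under 0.05 there were 5 of 7, all lower in the DZ, against 27.4% of all genes. The DZ libraries lay below the SFZ libraries without overlap for Tbx4 (-0.99, standard error 0.23), Meis2 (-0.94, 0.21), Meis1 (-0.67, 0.14), Tbx5 (-0.58, 0.15) and Pitx1 (-0.39, 0.13), as for 26.5% of all genes. The median of all genes in this comparison was -0.17, and the lean of all genes depended on scaling here too. At an unadjusted p under 0.05 in limma 560 genes were higher and 2542 lower as deposited. After quantile normalization there were 1649 and 1107, and with size factors 1339 and 1308. Shox2 (0.48, 0.20) and Tbx15 (0.08, 0.23) overlapped between the zones.

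Within R3-cKO mice 0 of 7 reached an adjusted p under 0.05 in limma, as 0.0176% of 11336 genes did, and 4 of 7 had an unadjusted p under 0.05, against 14.1% of genes. Meis2 (-1.18, standard error 0.18), Meis1 (-1.05, 0.20) and Tbx5 (-0.96, 0.30) were lower in the DZ without overlap, as were 16.8% of all genes. Tbx15 (0.46, 0.12) was higher in the DZ without overlap, as were 4.24% of all genes. At an unadjusted p under 0.05 in limma 344 genes were higher and 1258 lower as deposited. After quantile normalization there were 693 and 674, and with size factors 669 and 711. Same-numbered libraries deviated together in this comparison, and with the replicate number as a block Meis1 and Meis2 were called (limma adjusted p = 0.0451 for each). Pitx1 was 0.25 higher (0.18) and Tbx4 0.41 lower on the log2 scale (-0.41, 0.28), with overlap.

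**Figure D3:**
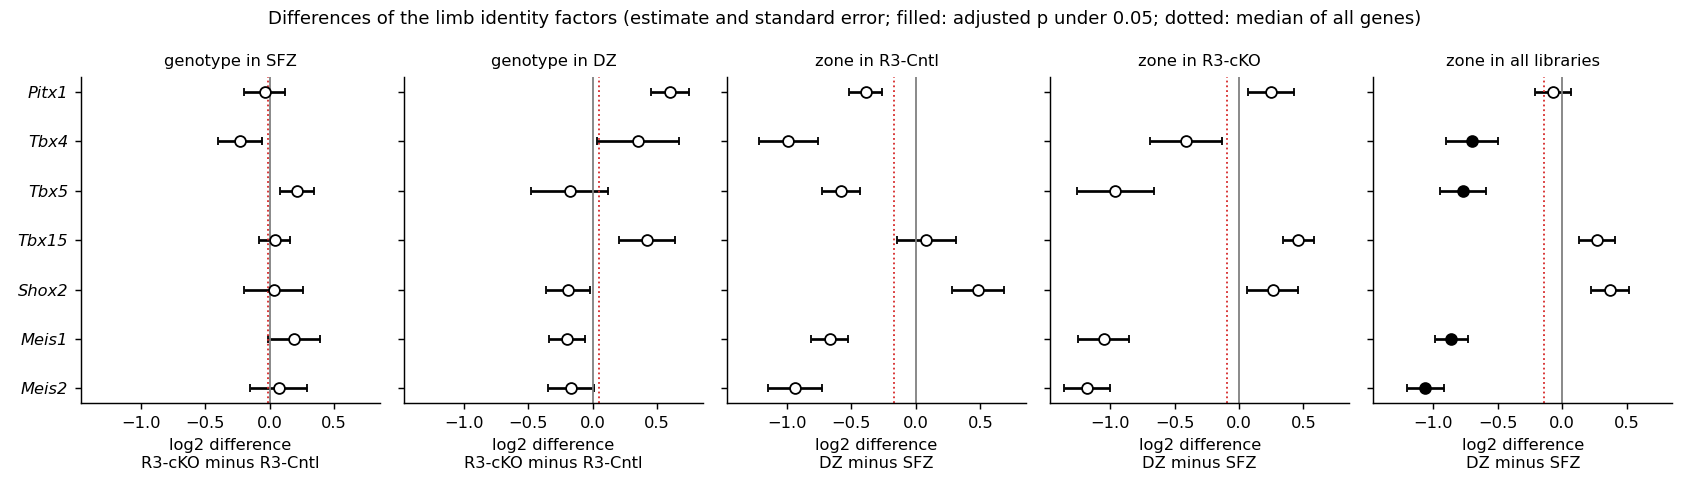
Log2 difference in FPKM + 1 of each limb identity factor with its standard error (horizontal axes) in the genotype comparison of each zone, the zone comparison of each genotype and the zone comparison over all libraries. Filled points have an adjusted p under 0.05 in limma, and the dotted line is the median of all genes tested. Only Meis1, Meis2, Tbx4 and Tbx5 over all libraries are filled, and Pitx1 lies at 0.60 between DZ genotypes.

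Genotype changed none of the 7 factors past the adjusted threshold. In the SFZ limma called 0 of 7 at an adjusted p under 0.05, against 0% of 11537 genes, and 0 of 7 at an unadjusted p under 0.05, against 0.295%. The SFZ genotypes overlapped for all 7, whereas 2.4% of genes did not overlap. The largest SFZ differences were those of Tbx4 (-0.23, standard error 0.17) and Tbx5 (0.21, 0.13).

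In the DZ 0 of 7 reached an adjusted p under 0.05 in limma, as did 0% of 11091 genes, and 1 of 7 had an unadjusted p under 0.05, against 3.64% of genes. This was Pitx1, which averaged 23.6 ± 3.24 FPKM across R3-Cntl and 36.3 ± 4.74 across R3-cKO (SD, n = 3), a difference of 0.60 (standard error 0.15, limma unadjusted p = 0.00624, adjusted p = 0.999). The exact permutation p was 0.1, the smallest possible. The R3-cKO libraries lay above the R3-Cntl libraries without overlap for Pitx1 alone of the 7, as for 5.26% of genes. Same-numbered DZ libraries deviated together, and with the replicate block Pitx1 had a limma adjusted p of 0.151.

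Of the hindlimb HoxC genes Hoxc10 and Hoxc9 also lay above R3-Cntl without overlap in R3-cKO DZ libraries, as did 5.26% of the genes tested. The differences were 0.66 for Hoxc10 (standard error 0.23, limma unadjusted p = 0.0263) and 0.45 for Hoxc9 (0.15, 0.0231), with an adjusted p of 0.999 for each. Hoxc11 reached 1 FPKM in R3-cKO libraries alone, at 2.11, 1.37 and 2.18 FPKM beside 0.60, 0.98 and 0.94 FPKM, and so passed the filter only through the group where it was higher. Tbx4 (0.35, 0.32) and Tbx15 (0.42, 0.22) were higher with overlap, and Tbx5 (-0.18, 0.30), Shox2 (-0.19, 0.17), Meis1 (-0.20, 0.14) and Meis2 (-0.17, 0.18) were lower with overlap. In same-number pairs Tbx4 and Tbx15 were higher in R3-cKO in 3 of 3, and Shox2 was lower in 3 of 3. Tbx5, Meis1 and Meis2 were each lower in 2 pairs and higher in 1. For Tbx5 the difference was 0.14 without R3-cKO DZ library 3.

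Other signals separated these DZ groups as well. The 7 osteoblast markers summed to 88.2 to 211 FPKM in R3-Cntl DZ and 26.6 to 65.5 FPKM in R3-cKO DZ libraries. Of the 5 tested, 4 were lower at an unadjusted p under 0.05 in limma, beside 127 of 11091 genes. Each had a limma adjusted p of 0.999, and Bglap among them passed the filter only through R3-Cntl. Sums of the 10 macrophage markers did not overlap between R3-Cntl DZ (7.34 to 25.3 FPKM) and R3-cKO DZ libraries (3.76 to 6.79 FPKM). Only 2 of the 10 were tested, and Lyz2 was the largest part of every sum. Lyz2 was lower without overlap (difference -1.15, limma unadjusted p = 0.0379, adjusted p = 0.999). Cd68, the other one tested, overlapped (-0.25, limma unadjusted p = 0.376, adjusted p = 0.999). Of the untested markers Cd14 alone had a higher mean in R3-cKO, at 0.62 beside 0.427 FPKM. The chondrocyte sums overlapped, at 24900 to 39700 and 17200 to 31200 FPKM, but 12 of the 13 markers had lower estimates in R3-cKO (median -0.59, beside 0.05 for all genes). Of these Hapln1 (-0.72, standard error 0.20, limma unadjusted p = 0.00884) and Col11a2 (-0.69, 0.22, 0.0189) did not overlap, with an adjusted p of 0.999 for each. Among all 11091 genes tested, 308 were lower in R3-cKO without overlap. The fibroblast and synovium sums overlapped, at 3.15 to 42.5 and 19.7 to 52.1 FPKM. Of the 4 markers of that list tested, 3 had higher estimates in R3-cKO, Ly6a (2.24), Thy1 (0.51) and Pdgfra (0.01). Postn (-0.78) was lower. Ly6a stood at 12.99, 17.04 and 33.90 FPKM beside 0.33, 4.99 and 9.49 FPKM for R3-Cntl, without overlap, as for 5.26% of genes. Ly6a, Thy1 and Pdgfra reached 1 FPKM in 3 R3-cKO DZ libraries but in 2, 1 and 2 R3-Cntl DZ libraries. All 3 higher estimates thus came from genes that passed the filter only through R3-cKO. Postn reached 1 FPKM in 2 libraries of each genotype. Thy1, Pdgfra and Postn overlapped between the genotypes. The 4 Y-linked genes were at or under 0.04 FPKM in 4 libraries, R3-cKO 2 and 3 of each zone, and at 1 FPKM or more in the other 8. The part of these in the Pitx1 values was not tested.

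The difference between the zones in the genotype effect was tested as an interaction over all 12 libraries. It passed the adjusted threshold in limma for 0 of 7 factors, as for 0% of 11765 genes. At an unadjusted p under 0.05 there was 1 of 7, against 0.841% of genes. This was Pitx1, whose genotype difference in the DZ exceeded that in the SFZ by 0.64 (standard error 0.23, limma unadjusted p = 0.0178, adjusted p = 0.999). The interaction estimates of Tbx4 (0.58, 0.39) and Tbx5 (-0.39, 0.35) had opposite signs.

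A list of 36 further limb patterning genes gave the setting of these factors. It held 35 genes of the table, of which 22 were tested over all libraries, and 14 were called lower and 0 higher in the DZ, beside 2219 lower (18.9%) and 506 higher among all 11765 genes. Of the 14, Tbx2, Tbx3, Lmx1b and Fgf10 reached 1 FPKM in fewer than 3 DZ libraries and so passed the filter only through the SFZ, where they were higher, which leaves 10. After quantile normalization 13 were called lower and 1, Pbx2, higher, and with size factors 14 were lower and again 1 higher. Among the TALE partners and relatives Pbx3, which binds DNA together with Meis proteins, was called lower (-0.70, standard error 0.15, limma adjusted p = 0.00978).

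Among T-box and Pitx relatives Tbx18 was called lower (-1.41, standard error 0.12). Tbx3 ranged from 2.34 to 4.38 FPKM in SFZ libraries and from 0.61 to 1.65 FPKM in DZ libraries. Tbx2 ranged from 1.12 to 2.51 FPKM in SFZ libraries and from 0.03 to 0.19 FPKM in DZ libraries. Of the limb bud mesenchyme and axis factors 7 were called lower, besides Lmx1b. They included the mesenchymal factors Prrx2 (-2.69, 0.49), Prrx1 (-1.63, 0.29) and Twist1 (-1.37, 0.26), along with Irx3 (-1.41, 0.22) and Irx5 (-1.06, 0.18), which act early in the proximal and anterior hindlimb bud. Prrx1 ranged from 45.16 to 70.83 FPKM in SFZ libraries and from 8.53 to 33.82 FPKM in DZ libraries.

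Fgf10, the growth factor of limb outgrowth, ranged from 0.20 to 2.82 FPKM in SFZ and from 0.02 to 0.13 FPKM in DZ libraries. Lmx1b, the dorsal factor, ranged from 1.73 to 2.85 FPKM in SFZ and from 0.22 to 1.49 FPKM in DZ libraries. Between genotypes 0 of 22 genes of this list in the SFZ and 0 of 17 in the DZ passed the adjusted threshold in limma or an unadjusted p under 0.05. Of 11 limb Hox genes 8 were tested over all libraries and 3 were called lower in the DZ, beside 18.9% of all genes. These were Hoxd9 (-0.54, 0.12), Hoxc4 (-0.42, 0.12) and Hoxc5, which passed the filter only through the SFZ. The hindlimb genes Hoxc9 (0.17, 0.14) and Hoxc10 (0.23, 0.19) were higher and did not pass the threshold. After quantile normalization Hoxd9 and Hoxc4 were not called, and Hoxa11 and Hoxc11 were called higher, Hoxc11 having passed the filter only through the DZ. With size factors Hoxc5 and Hoxd9 were called lower, Hoxa11 was called higher and Hoxc4 was not called.

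**Figure D4:**
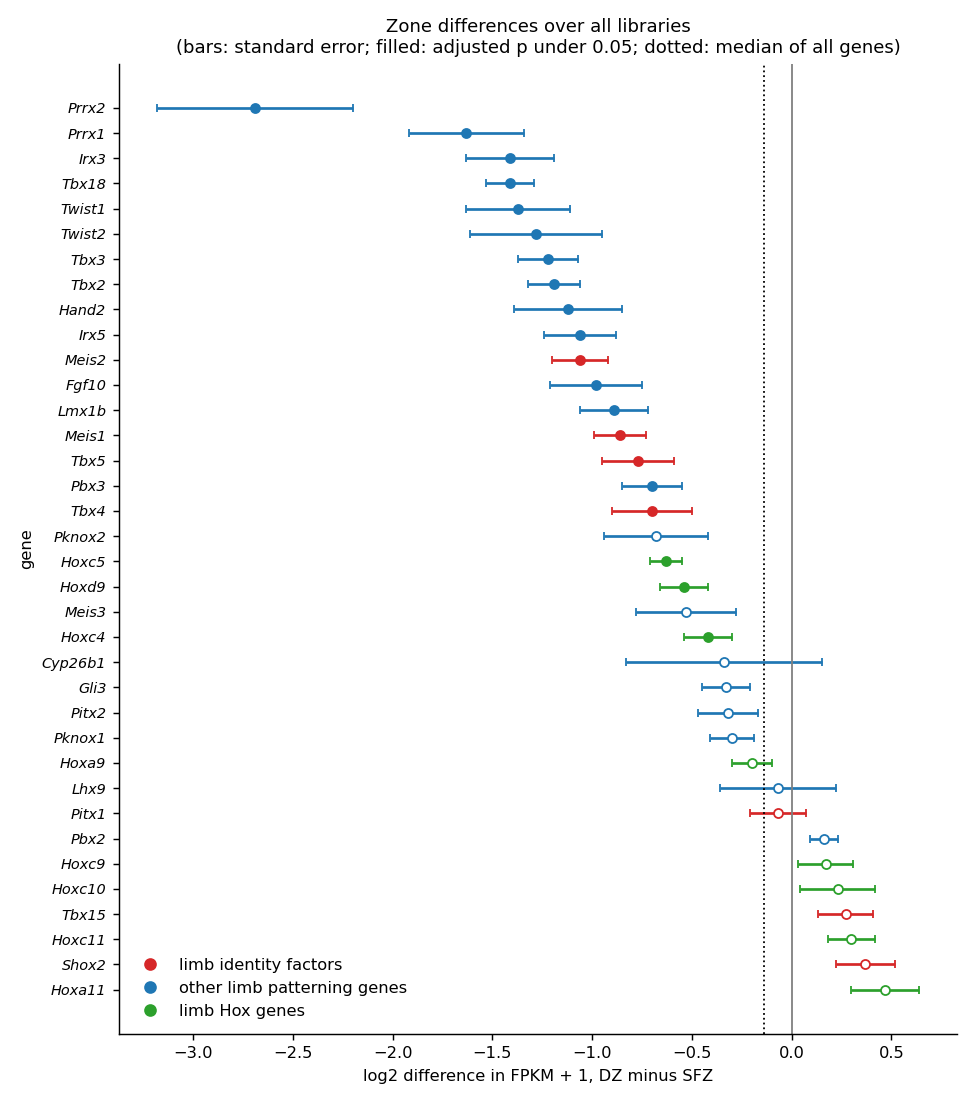
Log2 difference in FPKM + 1 between DZ and SFZ over all 12 libraries with its standard error (horizontal axis) for the limb identity factors, the other limb patterning genes and the limb Hox genes that were tested and are reported here, ordered by value. Filled points have an adjusted p under 0.05 in limma and the dotted line is the median of all genes, at -0.14. Prrx2 lies lowest at -2.69, and Hoxa11 and Shox2 lie highest at 0.47 and 0.37.

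Genes whose levels followed each factor most closely were found by Pearson correlation of log2(FPKM + 1) over the 12 libraries, among 11765 genes. This is a description, since libraries share zones and may share mice, and values after removal of group means are given second. Tbx5 was followed by Senp8 (r = 0.971 and 0.93), Itpripl2 (0.955 and 0.928) and Hoxd8 (0.939 and 0.927), and Tbx4 by Etv1 (0.946 and 0.927), Pdlim2 (0.936 and 0.852) and Il10rb (0.926 and 0.819). Meis1 was followed by Tmem168 (0.979 and 0.949), Septin6 (0.973 and 0.847, named from its Entrez gene because its symbol is stored as a date) and Ccdc3 (0.972 and 0.83), and Meis2 by Adamtsl3 (0.972 and 0.867) and Tshz1 (0.969 and 0.881).

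Shox2 was followed by Pgbd1 (0.971 and 0.973), Rtraf (0.966 and 0.964) and 9230110C19Rik (0.964 and 0.955). Tbx15 was followed by 2410141K09Rik (0.956 and 0.97), Thbs1 (0.92 and 0.844) and Pak1 (0.918 and 0.864). Pitx1 had the loosest neighbours, Slc12a7 (0.847 and 0.703), Dgkd (0.816 and 0.836) and Spata7 (0.816 and 0.752). None of the neighbours named belongs to a list used here, although Hoxd8 is a Hox gene.

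The promoters of Meis1 and Meis2, which were lower together in the DZ, are shown as the 250 bases before the RefSeq start in GRCm38.p6, with matches to the Runx motif in capitals. The motif was searched on both strands as TGTGGT or TGCGGT, the form that the study's text gives for the Runx family. The wider form TG(T/C)GG(T/C), which the study reports from its Runx3 peaks, was not searched here. The Meis1 window is chr11:19018970-19019219 and the Meis2 window is chr2:116064620-116064869, both on the reverse strand.
Meis1: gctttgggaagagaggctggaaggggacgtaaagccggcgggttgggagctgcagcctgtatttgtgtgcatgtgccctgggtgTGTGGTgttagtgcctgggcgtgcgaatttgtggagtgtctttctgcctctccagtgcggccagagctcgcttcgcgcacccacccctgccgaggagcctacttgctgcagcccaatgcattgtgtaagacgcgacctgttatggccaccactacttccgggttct
Meis2: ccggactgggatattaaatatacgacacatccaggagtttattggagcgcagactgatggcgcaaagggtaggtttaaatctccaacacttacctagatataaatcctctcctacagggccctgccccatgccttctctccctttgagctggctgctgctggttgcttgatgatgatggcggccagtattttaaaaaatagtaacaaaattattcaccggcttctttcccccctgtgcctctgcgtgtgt
Meis1 had 1 match, at 166 to 161 bases before the start, and Meis2 had 0. The windows of Tbx4 and Shox2, the others of the 7 that were matched in the RefSeq table, had 0 as well. A match was present in 18.6% of 32851 promoters of this length. Neither Meis1 nor Meis2 differed between genotypes past the threshold, at 0.19 and 0.07 in the SFZ and -0.20 and -0.17 in the DZ.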

How the data were processed

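RNA-seq of SFZ and DZ cells was sequenced by the authors as 100-bp paired-end reads and mapped to mm9. Per the labels the processing notes name Bowtie 0.12.2. The deposited values, 1 for each of 17536 genes and 12 libraries, were taken as FPKM after scaling by the authors with the trimmed mean of M values, and 0 columns were left unmapped. Whole reads could not be recovered from the rounded low values.

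Values were analysed as log2(FPKM + 1) in R 4.3.3 with limma 3.58.1 (empirical Bayes with a mean-variance trend, Benjamini-Hochberg adjustment over all genes tested, threshold 0.05). For a comparison only its libraries were fitted, over genes that reached 1 FPKM in 3 or more of these, and the fits were tested on simulated data. Ratios and single genes were compared in Python 3.11.15 by exact two-sided permutation tests. The labels give no mouse for a library, although the study's text names 3 littermate mice per genotype, so p-values measure the spread between these libraries.

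The factors and the lists were chosen with earlier results of these data known. Genes were named if they were limb identity factors, belonged to a list, were Runx3, or were among the 3 closest by correlation. Results for some genes of the lists are not reported here. Same-numbered libraries of both genotypes were taken as pairs where every correlation of their deviations from the group means exceeded 0.1. This held between DZ genotypes (0.65, 0.78 and 0.69) and between R3-cKO zones (0.42, 0.78 and 0.65). Alternatives were other pseudocounts, filters and scalings, a replicate block, a model of all libraries, and leaving out each library. Mapped coordinates and coding stretches are from the NCBIM37 genome and its annotation, and promoters from RefSeq.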

Additional observations from a re-analysis of the deposited data

How the results depend on the processing

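No genotype or interaction comparison called a gene under any alternative, and 652 of the 665 alternative fold changes of the 7 factors kept their direction. Counts of genes called between zones depended on the processing. Within R3-Cntl the count of 140 became 88 and 29 with pseudocounts of 0.1 and 5, 0 with no filter, 15 with a mean of at least 1 FPKM, 4 after quantile normalization, 17 with size factors and 798 with all 12 libraries in 1 model, and 0 to 505 without each library in turn. Within R3-cKO the count of 2 became 1 with either pseudocount, 7 with no filter and 167 with all 12 libraries in 1 model, and 0 to 5 without each library. The model of all 12 libraries called 2 factors, Meis1 and Meis2, in each genotype, and leaving out R3-Cntl libraries gave 0 to 1. Over all libraries the count of 2725 ranged from 1624 (without R3-Cntl SFZ 2) to 2899, and 3 to 5 of the factors were called. Here Pitx1 turned to 0.05 after quantile normalization and 0.09 with size factors, and ranged from -0.17 to 0.01 without each library.

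Between SFZ genotypes leaving out each library moved Pitx1 over -0.18 to 0.12, Tbx15 over -0.03 to 0.11, Shox2 over -0.13 to 0.23 and Meis2 over -0.11 to 0.20. Between DZ genotypes it moved Tbx5 over -0.47 to 0.14, and between R3-Cntl zones Tbx15 over -0.09 to 0.33. The HoxC ratio between SFZ genotypes moved over -0.21 to 0.08. None of these was called, and the cause of the changes was not tested. With the replicate block, the zone count became 831 and 1 factor (Meis2) was called in R3-Cntl, and 352 and 2 factors (Meis1 and Meis2) in R3-cKO. In R3-Cntl same-numbered zones did not all deviate together (correlations of 0.58, 0.11 and -0.15), nor did SFZ genotypes (0.79, -0.09 and -0.42). Over all libraries the replicate block also called Shox2 (limma adjusted p = 0.0145), as did a block by genotype and number added after seeing the data (0.0218).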
